A study of Drosophila melanogaster with 10 samples.

Results

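The genes of the Toll and Imd pathways, the main NF-kappaB signalling routes of insect innate immunity, were followed across 12xWT and yw larval brains of Drosophila melanogaster and across the sexes. Members were every gene of the count table whose name begins with PGRP-, 13 in all, and 24 named pathway genes, which gave 37 of the 16727 genes in the table. Antimicrobial peptide genes, the best known outputs of both pathways, were not members. In 12xWT brains 14 of 32 tested members were higher and 1 was lower than in yw brains. Of all genes tested, 17% were higher and 16.4% lower. Through 12xWT libraries alone 6 of the 32 had passed the expression filter, which favours higher values. The 5 called members that differed by over 2-fold were 4 recognition genes and the Imd inhibitor pirk, while the relay genes called differed by less. Among these 5, PGRP-LD, PGRP-SB1 and pirk had passed the filter through 12xWT libraries alone. Other genes share 93.1% of the exon length of PGRP-LD.

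In the Toll pathway, recognition proteins in the body fluid, among them PGRP-SA, PGRP-SD, GNBP1 and GNBP3, start a cascade of serine proteases that cuts the ligand Spätzle. Cut Spätzle binds the receptor Toll, the adaptors Myd88 and tube and the kinase pelle pass the signal on, the inhibitor cactus is degraded, and the NF-kappaB factors Dif and dorsal enter the nucleus. In the Imd pathway, PGRP-LC at the membrane and PGRP-LE bind bacterial peptidoglycan, and imd, Fadd, the caspase Dredd, the kinase Tak1 with Tab2, and the IκB kinase made of key and ird5 act in turn to activate the NF-kappaB factor Relish. Several of these genes also act outside immunity: Toll, dorsal and cactus set the dorsoventral axis of the embryo, and Toll family receptors with Spätzle family ligands act in the nervous system on neuron survival and wiring.

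Gene expression was measured by RNA sequencing of polyA-selected RNA from brains of wandering larvae of the third instar, the end of larval life, with 25 brains in each of 10 libraries. The 6 libraries of the 12xWT genotype, labelled as having 12 wild-type histone gene repeats, comprised 3 of males and 3 of females, and the 4 libraries of yw, labelled as having 200, comprised 2 of males and 2 of females. The name yw stands for the alleles yellow (y) and white (w). The labels name no other allele and no treatment. Repeat number, the y and w difference and any other difference between the stocks therefore cannot be told apart. The labels do not say whether libraries came from separate cultures, so p-values measure the spread between these samples, which may be technical.

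Between 52.02 and 79.92 M read pairs were assigned to genes in each library, and levels are given as counts per 1 M counts (CPM). Where a gene had no read in a library, counting error alone leaves room for 3 counts, which is 0.0375 to 0.0577 CPM according to the library's depth. In 12xWT libraries the white gene w stood at 223.8 to 299 CPM, against 0.089 to 0.175 CPM in yw libraries. The yellow gene y stood at 2.69 to 3.74 CPM in 12xWT and 0.309 to 0.819 CPM in yw libraries. The male-specific RNA roX1 and the female-enriched gene Sxl separated male from female libraries without overlap. Among females, however, roX1 stood at 584.9 to 957.7 CPM in 12xWT and 308.1 to 446 CPM in yw libraries, and Sxl at 533.7 to 609.3 CPM in 12xWT and 707.2 to 764.7 CPM in yw libraries. The male-specific roX2 stood at 7.34 to 15.1 CPM in 12xWT females and 0.0769 to 2.88 CPM in yw females. For msl-2 the values were 69.9 to 84.8 CPM in 12xWT females and 60.8 to 66.6 CPM in yw females. Each was thus shifted towards males in 12xWT females, though roX1, roX2 and msl-2 stayed below every male library and Sxl above every male library. For roX1, roX2 and msl-2 the males were shifted the other way. In 12xWT males roX1 stood at 1949 to 2535 CPM, roX2 at 35.71 to 47.98 CPM and msl-2 at 119.5 to 139.3 CPM. In yw males they stood at 2953 to 3139 CPM, 65.35 to 67.75 CPM and 152 to 157.4 CPM. Transcripts of 50 Y-linked genes summed to 4.47 to 18.6 CPM in the 3 12xWT libraries labelled female, against 0 to 0.0356 CPM in yw females. In 12xWT males the same sum was 20.5 to 23.5 CPM, against 0.175 to 0.276 CPM in yw males. Genotype results are therefore also given without the 12xWT female libraries. The neuron marker elav stood at 1424 to 1640 CPM in 12xWT libraries and 1527 to 1666 CPM in yw libraries.

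The expression filter required at least 0.175 CPM in at least 2 libraries, and 32 of the 37 members passed it. PGRP-LD, PGRP-LF, PGRP-SB1, PGRP-SC2, PGRP-SD and pirk passed through their 12xWT libraries alone, so counts over the tested members are descriptions and not evidence on the pathway as a whole. The 5 not tested were PGRP-SB2, PGRP-SC1a, PGRP-SC1b, psh and SPE. PGRP-SC1a, a peptidoglycan-cleaving amidase gene, had no read in any library. Its near-identical neighbour PGRP-SC1b had 0, 0 and 0.0357 CPM as the lowest, median and highest 12xWT values, against 0 and 0.0163 CPM in yw males and 0 and 0.0178 CPM in yw females. Reads that fit both copies equally could not be assigned to either under unique counting. PGRP-SB2 had 0.0178, 0.0611 and 0.088 CPM as the lowest, median and highest 12xWT values, against 0 and 0.065 CPM in yw males and 0.0769 and 0.0356 CPM in yw females. The protease gene psh, whose product triggers the cascade when microbial proteases cut it, had 0.0178, 0.0452 and 0.088 CPM as the lowest, median and highest 12xWT values, against 0 CPM in both yw male libraries and 0.0192 and 0.0178 CPM in yw females. SPE, the protease that cuts Spätzle, had 0.05, 0.128 and 0.211 CPM as the lowest, median and highest 12xWT values, against 0.035 and 0.0813 CPM in yw males and 0.154 and 0.0534 CPM in yw females. The groups overlapped for all 5 of these genes.

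Levels between members are compared per kb of exon, with the full exon length, including bases shared with other genes. Such bases make up 93.1% of PGRP-LD and 44.4% of PGRP-LF, so the levels of these genes are uncertain. Tl, the Toll receptor, was highest at 48.7 ± 1.91 CPM per kb (SD, n = 6) in 12xWT and 49.7 ± 1.41 CPM per kb (SD, n = 4) in yw libraries. Next came key at 43.1 ± 1.81 CPM per kb in 12xWT and 42 ± 1.47 CPM per kb in yw libraries. Below them, the means of Tak1, tub and cact lay at 27.4 to 29.4 CPM per kb in 12xWT and 26.4 to 29.7 CPM per kb in yw brains. The library range of tub overlapped those of both others in either genotype, while Tak1, at 28.9 to 30.7 CPM per kb in 12xWT and 27.6 to 30.8 CPM per kb in yw libraries, lay above cact, at 26.1 to 28.2 CPM per kb in 12xWT and 25.4 to 27.1 CPM per kb in yw libraries. Receptor and relay genes thus filled the top of the order, with 18w next. Most PGRP genes filled its low end, apart from PGRP-LE at 7.93 ± 0.49 CPM per kb in 12xWT and 7.77 ± 0.424 CPM per kb in yw libraries. The inhibitor pirk lay at 0.363 ± 0.1 CPM per kb in 12xWT and 0.0403 ± 0.00704 CPM per kb in yw libraries.

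**Figure D1:**
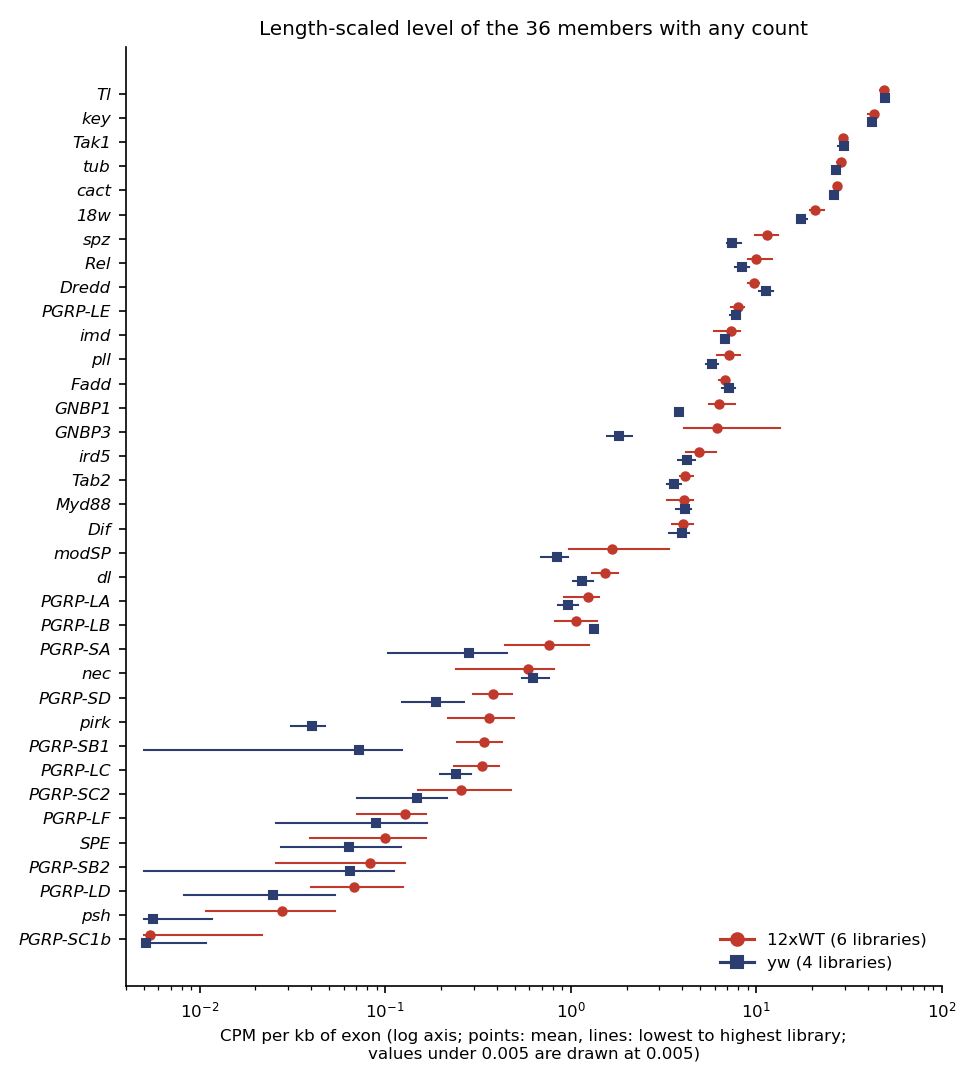
Mean level per kb of exon in 12xWT (circles) and yw (squares) libraries for the 36 members with any count, on a log axis, with lines from the lowest to the highest library. Values under 0.005 CPM per kb are drawn at 0.005. Tl, key, Tak1, tub and cact are highest in both genotypes, and pirk, GNBP3 and PGRP-SB1 show visible gaps between the genotypes.

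The main comparison asked how expression differed between the genotypes with sex as a covariate. A gene was called when edgeR's quasi-likelihood test, with the Benjamini-Hochberg adjustment over all 11146 genes tested, gave an adjusted p under 0.05. Fold changes are 12xWT over yw on the log2 scale, so positive values mean higher in 12xWT. Of the 32 tested members 15 were called, against 33.4% of all genes tested. The median log2 fold change was 0.23 over the members and 0.0005 over all genes, and 24 of 32 members had a positive value. Of these 32, 6 had passed the filter through 12xWT libraries alone, which favours a positive value. Library values did not overlap between the genotypes for 8 members, 25% of those tested, against 24% of all genes. All 8 were higher in 12xWT, 7 of them called, with modSP the exception. Over all 11146 genes tested, 1688 were higher without overlap and 991 lower. PGRP-SB1, PGRP-SD and pirk, which are among the 8, had passed the filter through 12xWT libraries alone.

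**Figure D2:**
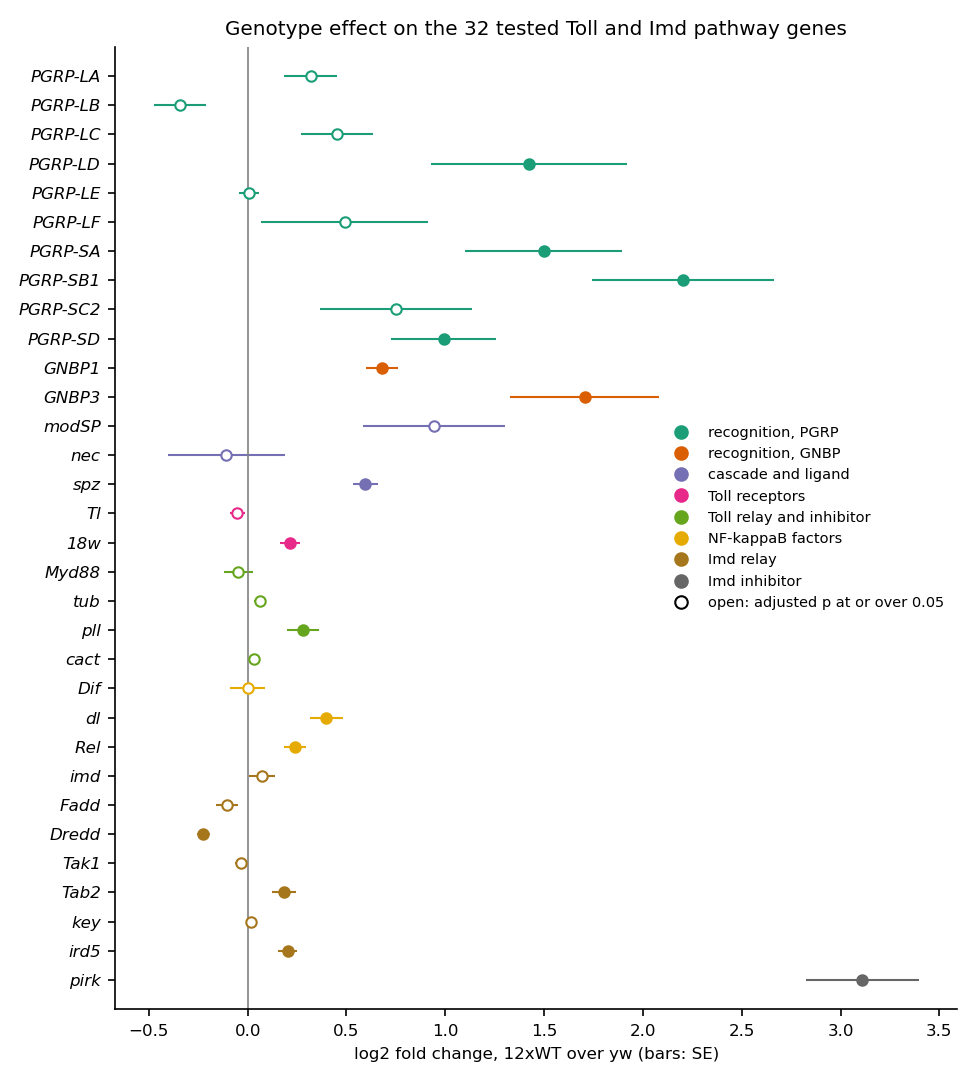
Log2 fold change of 12xWT over yw with its standard error for the 32 tested members, coloured by role, with filled points for an adjusted p under 0.05. The point for pirk lies farthest right at 3.11, the recognition genes spread between -0.34 and 2.20, and the relay genes sit near 0.

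Among the genes of the peptidoglycan recognition protein (PGRP) family, 10 of 13 were tested, and 4 were called higher and 0 lower. PGRP-SB1 (FBgn0043578, chromosome 3L, 16727299 to 16727989, minus strand, dm6), a secreted amidase, had 0.152, 0.224 and 0.264 CPM as the lowest, median and highest of the 6 12xWT libraries. In yw it had 0 and 0.0488 CPM in males and 0.0769 and 0.0534 CPM in females, from 0 to 4 counts in each. All 12xWT libraries lay above all yw libraries, a log2 fold change of 2.20 (edgeR adjusted p = 0.00365, SE 0.461). Its neighbour PGRP-SB2, with 10 bases between them and on the opposite strand, was too low to test.

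PGRP-SA (FBgn0030310, chromosome X, 11561643 to 11562779, plus strand), the circulating receptor that starts Toll signalling after infection by many Gram-positive bacteria, had 0.453, 0.769 and 1.28 CPM as the lowest, median and highest 12xWT values. The yw values were 0.105 and 0.163 CPM in males and 0.423 and 0.463 CPM in females. The 12xWT libraries lay above the yw males, while the lowest of them was within the range of the yw females. The log2 fold change was 1.50 (edgeR adjusted p = 0.0146, SE 0.399), and the call was lost without yw male replicate 2 (edgeR adjusted p = 0.0602). PGRP-SD (FBgn0035806, chromosome 3L, 7651180 to 7651900, plus strand), which works with PGRP-SA in bacterial sensing, had 0.214, 0.265 and 0.349 CPM as the lowest, median and highest 12xWT values. In yw libraries PGRP-SD had 0.192 and 0.146 CPM in males and 0.115 and 0.089 CPM in females, all below every 12xWT library. Its log2 fold change was 0.99 (edgeR adjusted p = 0.0139, SE 0.266), and without yw female replicate 2 the adjusted p was 0.0534 by edgeR.

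PGRP-LD (FBgn0260458, chromosome 3L, 5780051 to 5784685, plus strand) had 0.157, 0.22 and 0.495 CPM as the lowest, median and highest 12xWT values. The yw values were 0.0699 and 0.0325 CPM in males and 0.0769 and 0.214 CPM in females, and yw female replicate 2 lay within the 12xWT range. The log2 fold change was 1.42 (edgeR adjusted p = 0.0447, SE 0.495). The call was lost without any of 6 single libraries (12xWT female replicate 3, 12xWT male replicates 1 and 2, yw female replicate 1, yw male replicates 1 and 2), with edgeR adjusted p between 0.0553 and 0.145. Exons of Pmi, Cralbp and CR45026 cover 93.1% of its exon length, and pairs were counted without regard to strand, which leaves the origin of these reads uncertain.

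The other 6 tested PGRP genes were not called. PGRP-LC, the main membrane receptor of the Imd pathway, had a log2 fold change of 0.45 (edgeR adjusted p = 0.0753, SE 0.182), at 0.856 to 1.48 CPM in 12xWT and 0.715 to 1.05 CPM in yw libraries. PGRP-LE, its intracellular partner, stood at 0.0077 on the log2 scale. PGRP-LB, an amidase that damps Imd signalling by cleaving peptidoglycan, had the lowest value of the group at -0.34 (edgeR adjusted p = 0.0679, SE 0.133). Its 12xWT libraries had 1.46 to 2.46 CPM and its yw libraries 2.29 to 2.46 CPM. PGRP-LA, which lies 473 bases from PGRP-LC, had a log2 fold change of 0.32 and PGRP-LF, a membrane inhibitor of PGRP-LC signalling 1272 bases beyond PGRP-LC, 0.49. Exons of UGP cover 44.4% of those of PGRP-LF. PGRP-SC2, another amidase, had 0.75. Single libraries decided some of these verdicts. Without 12xWT female replicate 3, PGRP-LA and PGRP-LC were called (edgeR adjusted p = 0.0298 and 0.0257). Without 12xWT female replicate 2, PGRP-LB was called (edgeR adjusted p = 0.0147).

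Both genes of the GNBP family, whose products bind microbial surface sugars and act upstream of the protease cascade, were called higher. GNBP1 (FBgn0040323, chromosome 3L, 18675800 to 18677876, plus strand), which forms a complex with PGRP-SA, had 9.96, 11 and 13.7 CPM as the lowest, median and highest 12xWT values. In yw libraries GNBP1 had 6.64 and 6.96 CPM in males and 6.98 and 6.91 CPM in females. The groups did not overlap, and the log2 fold change was 0.68 (edgeR adjusted p = 7.11e-05, SE 0.0807).

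GNBP3 (FBgn0040321, chromosome 3L, 8955021 to 8956551, plus strand), a sensor of fungal beta-glucans, had 6.24, 6.9 and 20.7 CPM as the lowest, median and highest 12xWT values, against 3.29 and 2.71 CPM in yw males and 2.4 and 2.79 CPM in yw females. The highest value was that of 12xWT male replicate 3, and every 12xWT library lay above every yw library. The log2 fold change was 1.71 (edgeR adjusted p = 0.0103, SE 0.378). Without 12xWT male replicate 3 it was 1.34 with a smaller standard error of 0.132 and stayed called (edgeR adjusted p = 2.59e-05).

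In the extracellular cascade the ligand changed. The Spätzle gene spz (FBgn0003495, chromosome 3R, 27064990 to 27070070, minus strand) had 23.4, 26.6 and 30.9 CPM as the lowest, median and highest 12xWT values, against 16.4 and 16.8 CPM in yw males and 17.6 and 19.6 CPM in yw females. The groups did not overlap, and the log2 fold change was 0.60 (edgeR adjusted p = 2.91e-05, SE 0.0626). The initiating protease gene modSP (FBgn0051217, chromosome 3R, 16652446 to 16655662, minus strand) had 2.25, 2.95 and 7.8 CPM as the lowest, median and highest 12xWT values, against 2.2 and 1.58 CPM in yw males and 1.86 and 2.08 CPM in yw females.

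The genotypes did not overlap in modSP, yet its log2 fold change of 0.94 was not called (edgeR adjusted p = 0.0759, SE 0.36). As for GNBP3, 12xWT male replicate 3 was the highest library. Without it the fold change was 0.60 and was called (edgeR adjusted p = 0.0184, SE 0.167), as it was without 12xWT male replicate 2 (edgeR adjusted p = 0.0386) and by DESeq2 (adjusted p = 0.00836). The gene lies 960 bases from the 3′ end of the Hox gene Ubx on the same strand, and Ubx stood at 101.2 to 109.1 CPM in 12xWT libraries, against 21 to 26.6 CPM in yw libraries. Whether reads that run past the end of Ubx reach modSP was not tested. The serpin gene nec, whose product restrains the cascade, had a log2 fold change of -0.11 (edgeR adjusted p = 0.812, SE 0.298), and its 12xWT and yw libraries overlapped.

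Of the receptors, Toll itself was not called. Tl (FBgn0262473, chromosome 3R, 26799041 to 26842403, plus strand) had 241.1, 253.3 and 267 CPM as the lowest, median and highest 12xWT values, against 261 and 248 CPM in yw males and 265 and 259 CPM in yw females, a log2 fold change of -0.05 (edgeR adjusted p = 0.301, SE 0.0365). The related receptor gene 18w (FBgn0287775, chromosome 2R, 20111511 to 20116932, plus strand), known for roles in epithelial morphogenesis, had 105.1, 110.4 and 126.2 CPM as the lowest, median and highest 12xWT values. Its yw values were 94.3 and 90.3 CPM in males and 94.2 and 101 CPM in females, below every 12xWT library. The difference was small, at 0.22 (edgeR adjusted p = 0.00818, SE 0.0507).

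Inside the cell, 1 of the 4 Toll relay genes was called. The kinase gene pll (FBgn0010441, chromosome 3R, 27251131 to 27253182, minus strand) had 11.9, 13.6 and 15.8 CPM as the lowest, median and highest 12xWT values, against 10.4 and 11.7 CPM in yw males and 10.7 and 12 CPM in yw females. Only the yw female replicate 2 value reached into the 12xWT range. The log2 fold change was 0.28 (edgeR adjusted p = 0.0222, SE 0.082) and lost its call without yw female replicate 1 (edgeR adjusted p = 0.0675) or yw male replicate 1 (edgeR adjusted p = 0.0806). The adaptor genes Myd88 and tub and the inhibitor gene cact stood at -0.05, 0.06 and 0.03 on the log2 scale, none called.

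Of the NF-kappaB factors, dl and Rel were called higher and Dif was not. The dorsal gene dl (FBgn0260632, chromosome 2L, 17436830 to 17450364, minus strand) had 8.36, 9.84 and 11.6 CPM as the lowest, median and highest 12xWT values, against 6.96 and 6.65 CPM in yw males and 7.4 and 8.51 CPM in yw females. The yw female replicate 2 library overlapped the lowest 12xWT library, and the log2 fold change was 0.40 (edgeR adjusted p = 0.00354, SE 0.0828). Its neighbour Dif, 3668 bases away on the same strand and the main Toll pathway factor of adult immunity, stood at -0.0006 (edgeR adjusted p = 0.996, SE 0.0909). For the Relish gene Rel (FBgn0014018, chromosome 3R, 9044183 to 9047977, minus strand) the lowest, median and highest 12xWT values were 31.6, 34.5 and 42.5 CPM, against 29.1 and 26.8 CPM in yw males and 28.8 and 32 CPM in yw females. The highest was 12xWT female replicate 1, and the yw female replicate 2 library lay above the lowest 12xWT library. Its log2 fold change was 0.24 (edgeR adjusted p = 0.0077, SE 0.057).

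Along the Imd relay 2 of 7 genes were called higher and 1 lower, all by less than 1.2-fold. The lower gene was Dredd (FBgn0020381, chromosome X, 633622 to 635545, minus strand), which encodes the caspase that cleaves Imd and Relish. It had 15.4, 16.7 and 17.7 CPM as the lowest, median and highest 12xWT values, against 20.9 and 20.5 CPM in yw males and 17.6 and 17.7 CPM in yw females. The genotypes overlapped when the sexes were pooled and not within either sex, and the log2 fold change was -0.22 (edgeR adjusted p = 0.000416, SE 0.0338).

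The IκB kinase gene ird5 (chromosome 3R, 16046347 to 16049421, minus strand) had 10.4, 12.2 and 15 CPM as the lowest, median and highest 12xWT values, against 11.4 and 11.6 CPM in yw males and 9.59 and 9.44 CPM in yw females. The groups overlapped when the sexes were pooled and not within either sex, and the log2 fold change was 0.20 (edgeR adjusted p = 0.00876, SE 0.0493). Tab2 (FBgn0086358, chromosome 2R, 19292529 to 19304508, plus strand), whose product links Tak1 to ubiquitin chains, had 15.4, 16.3 and 18.1 CPM as the lowest, median and highest 12xWT values, against 13.2 and 13.7 CPM in yw males and 14.9 and 15.5 CPM in yw females. The yw female replicate 2 library lay above the lowest 12xWT library, 12xWT male replicate 1. The Tab2 log2 fold change of 0.18 (edgeR adjusted p = 0.036, SE 0.0603) lost the call without any of 6 single libraries (12xWT female replicate 3, 12xWT male replicates 2 and 3, yw female replicate 1, yw male replicates 1 and 2), with edgeR adjusted p from 0.05 to 0.134. The adaptors imd and Fadd, the kinase Tak1 and the kinase subunit key were not called and lay between -0.10 and 0.07.

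The largest change was in pirk (FBgn0034647, chromosome 2R, 21660967 to 21662995, minus strand), whose product binds PGRP receptors and Imd and limits signalling, and which is itself a target of Relish. It had 0.405, 0.693 and 0.909 CPM as the lowest, median and highest 12xWT values, against 0.0874 and 0.0813 CPM in yw males and 0.0577 and 0.0712 CPM in yw females. The yw values rest on 3 to 5 counts in each library. All 12xWT libraries lay above all yw libraries, and the log2 fold change was 3.11 (edgeR adjusted p = 9.2e-06, SE 0.286), or 8.63-fold. Its exons overlap no other annotated gene. Of the called members 6 share exon positions with another gene, PGRP-LD as described and PGRP-SD, spz, pll, Dredd and ird5 over 0.212% to 8.08% of their exon length.

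**Figure D3:**
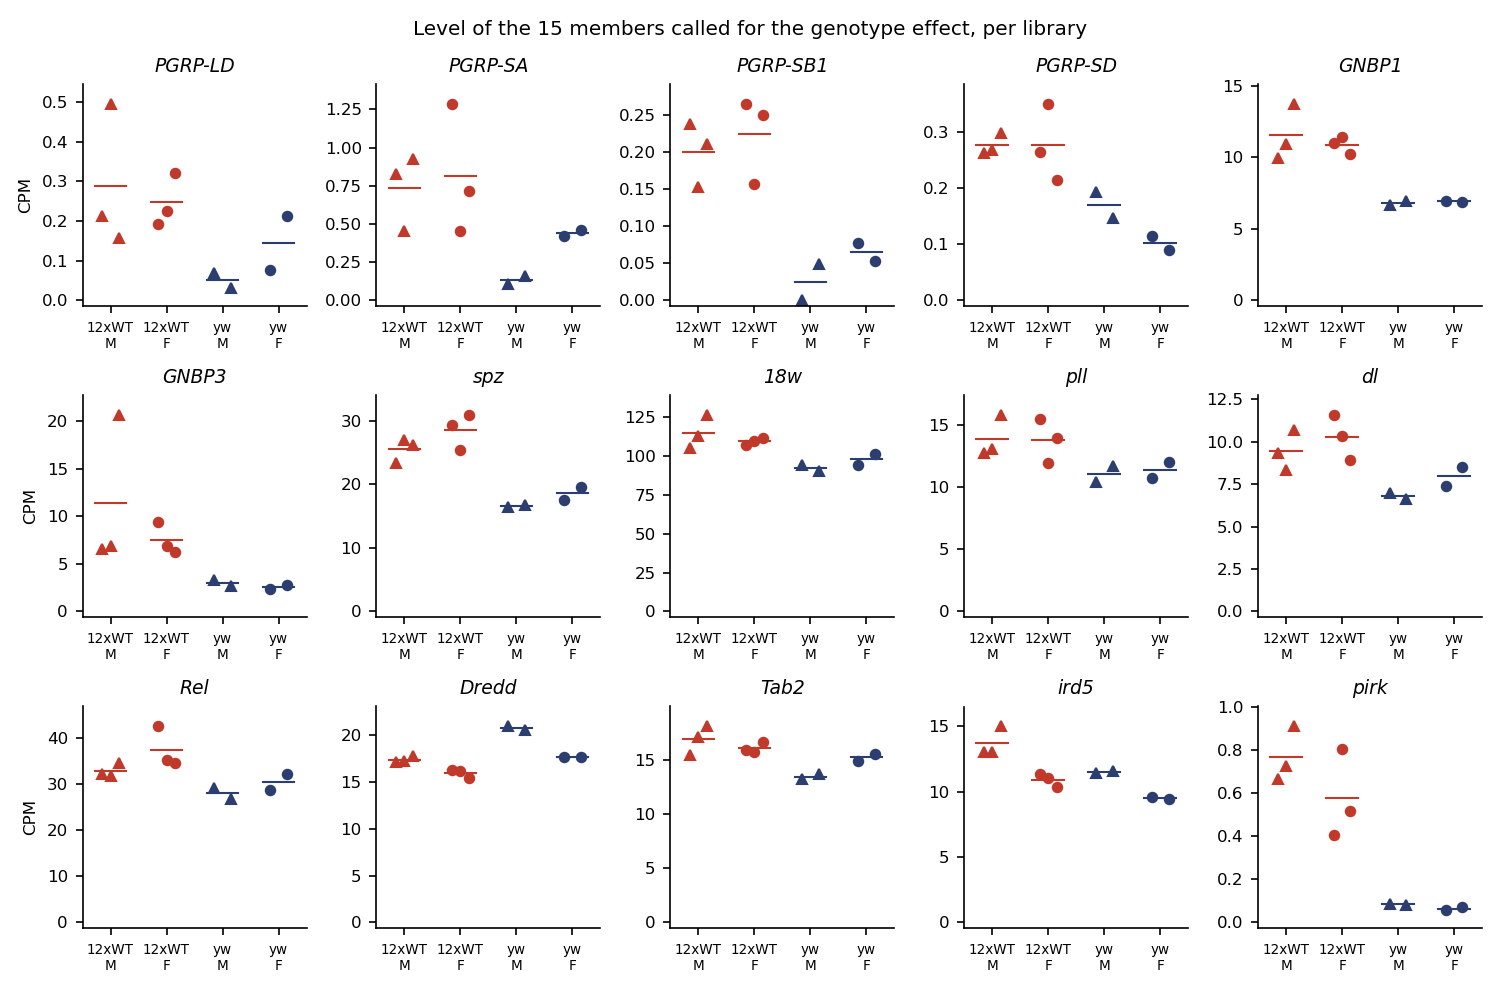
CPM per library of the 15 members called for the genotype effect, with 12xWT males, 12xWT females, yw males and yw females from left to right, and horizontal lines at group means. Each panel has its own linear axis, and the 12xWT libraries of pirk, at 0.405 to 0.909 CPM, all lie above the yw libraries, at 0.0577 to 0.0874 CPM.

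The calls were compared with the authors' deposited table, which gives yw over 12xWT, the opposite direction. It lists 29 of the 37 members, and 16 of these had an adjusted p under 0.05 there. Of the members called here 13 were also called in the authors' deposited table. PGRP-LA, PGRP-LB and modSP were called in the authors' deposited table alone, ird5 was called here alone, and PGRP-SB1 was called here and not analysed in that table. In the authors' deposited table pirk had a log2 fold change of -3.14 for yw over 12xWT (adjusted p = 6.16e-12).

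Tested within each sex, 12xWT males had 10 members higher and 1 lower than yw males, against 21% of all genes called in males. In females 4 members were higher and 1 lower, against 12.6% of all genes called. The members called in both sexes were GNBP1, spz, pirk and Dredd. The log2 fold change of pirk was 3.13 in males (edgeR adjusted p = 0.000429, SE 0.408) and 3.09 in females (edgeR adjusted p = 0.000993, SE 0.444). That of spz was 0.60 in males (edgeR adjusted p = 0.00151, SE 0.0933) and 0.59 in females (edgeR adjusted p = 0.00206, SE 0.0931). For GNBP1 the values were 0.74 in males and 0.62 in females, and for Dredd -0.28 in males and -0.17 in females. The other members called in males were PGRP-LD, PGRP-SA, PGRP-SB1, 18w, dl, Tab2 and ird5, and the other member called in females was PGRP-SD.

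These counts within a sex leaned on single libraries. In males 3 members were called higher without yw male replicate 1 and 4 without yw male replicate 2. In females 2 were called higher without yw female replicate 2, where GNBP1 had an edgeR adjusted p of 0.0512. The female call of Dredd held without 12xWT male replicate 1 or 3 and was lost without any of the other 8 libraries (edgeR adjusted p from 0.0514 to 0.15). The female call of PGRP-SD held without 12xWT female replicate 3 and was lost without any of the other 9 (edgeR adjusted p from 0.053 to 0.232).

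Signs matched between the sexes for 28 of 32 members, with 22 positive and 6 negative in both. The test of the difference itself called 0 members by edgeR, whose smallest Benjamini-Hochberg adjusted p was 1, and 0% of all genes. At an unadjusted p under 0.05 stood 3 members, Dif, Tab2 and PGRP-SA. The log2 fold change of Dif was -0.18 in males and 0.19 in females. Tab2 had 0.31 in males and 0.06 in females. PGRP-SA had 2.42 in males and 0.85 in females. No difference in genotype effect between the sexes was thus established for any member, and the Y-linked transcripts in 12xWT female libraries bear on these comparisons in a way that was not tested.

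**Figure D4:**
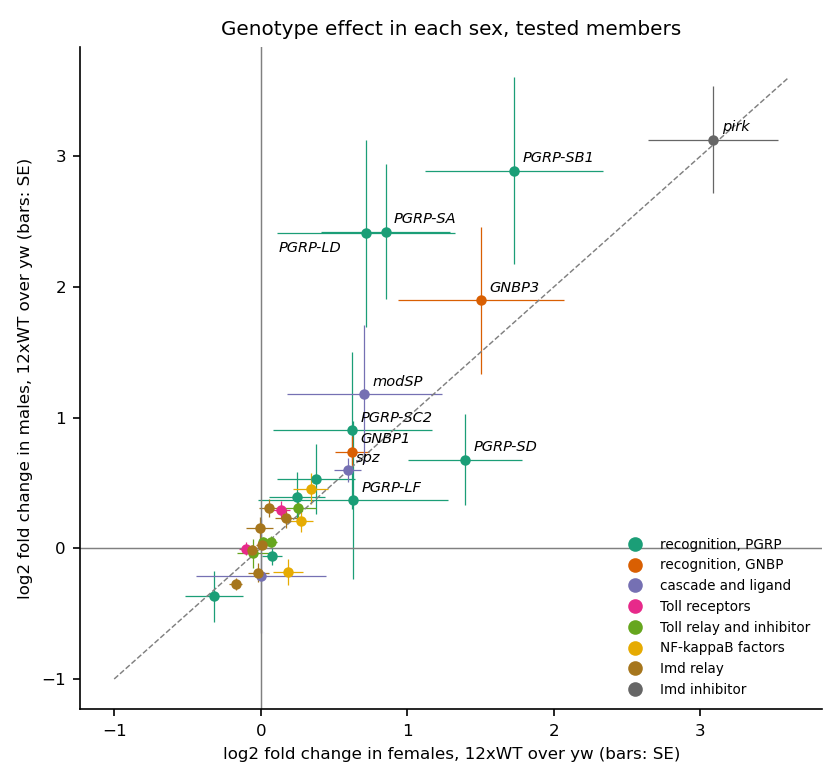
Log2 fold change of 12xWT over yw in males (vertical axis) against females (horizontal axis) for the 32 tested members, with standard errors and a dashed line of equality. The point for pirk lies on the line at 3.13 in males and 3.09 in females, while PGRP-SA lies above it at 2.42 in males and 0.85 in females with wide bars.

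Without the 12xWT female libraries 9 members were called higher and 1 lower, where 10.3% of all genes were called higher and 9.24% lower. The higher members were PGRP-SA, PGRP-SB1, GNBP1, spz, 18w, dl, Rel, Tab2 and pirk, and the lower was Dredd. For pirk the log2 fold change was 3.13, for spz 0.60, for GNBP1 0.74, for PGRP-SB1 2.89, for PGRP-SA 2.43 and for dl 0.46. For 18w it was 0.30, for Rel 0.21, for Tab2 0.31 and for Dredd -0.27. The calls of PGRP-LD, PGRP-SD, GNBP3, pll and ird5 were lost, with edgeR adjusted p of 0.0569, 0.212, 0.114, 0.0757 and 0.069 and log2 fold changes of 2.41, 0.68, 1.90, 0.31 and 0.23.

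Males differed from females at 2 members with genotype as a covariate, both higher in males, against 1.68% of all genes called. Of the 5 female libraries 3 were the 12xWT ones that carried Y-linked transcripts, whose bearing on this comparison was not tested. The kinase gene ird5 had 11.4, 13 and 15 CPM as the lowest, median and highest of the 5 male libraries. In female libraries it had 9.44, 10.4 and 11.3 CPM. All male libraries lay above all female libraries, a log2 difference of 0.31 (edgeR adjusted p = 0.0135, SE 0.048). For the X-linked Dredd the difference was 0.17 (edgeR adjusted p = 0.0299, SE 0.0333). Male and female libraries overlapped in Dredd when the genotypes were pooled and not within either genotype. The Dredd call held without 12xWT female replicate 2 or 12xWT male replicate 1 and was lost without any of the other 8 libraries (edgeR adjusted p from 0.054 to 0.115), while that of ird5 held without each library in turn.

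Within 12xWT alone, 0 members differed between the sexes by edgeR (4 at an unadjusted p under 0.05, and 1 called by DESeq2), against 0.0538% of all genes. In yw alone, 0 members were called by edgeR or by DESeq2 (5 at an unadjusted edgeR p under 0.05), against 0.807% of all genes. The ird5 difference of males minus females was 0.33 in 12xWT (edgeR adjusted p = 0.149, SE 0.0641) and 0.27 in yw (edgeR adjusted p = 0.234, SE 0.0795). For Dredd it was 0.12 in 12xWT (edgeR adjusted p = 0.485, SE 0.041) and 0.23 in yw (edgeR adjusted p = 0.0783, SE 0.05).

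Markers of other immune tissues were set beside these values, since recognition and cascade genes are strongly expressed in the fat body and in hemocytes, the blood cells of the fly. In bulk libraries fewer cells of a type and less RNA per cell cannot be told apart. Of 13 hemocyte markers 5 were called higher in 12xWT and 0 lower, beside 17% and 16.4% of all genes tested. The 13 summed to 245.4 to 296.5 CPM in 12xWT libraries and 205.3 to 237.1 CPM in yw libraries, most of it Pxn, crq and ush. The 5 were NimC1, srp, crq, ush and Ppn. The phagocytosis receptor gene NimC1 had 0.665 to 1.32 CPM in 12xWT libraries, against 0.0163 to 0.107 CPM in yw libraries. Hml, eater and He, at log2 fold changes of 1.69, 1.80 and 2.34, were not called, and their libraries overlapped between the genotypes. The 3 markers with a negative value, none called, were Pxn at -0.02, PPO2 at -0.38 and lz at -0.18. No hemocyte marker was at 0 in any library.

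Of the 10 fat body markers 9 were tested and 0 were called by edgeR, with 0 at an unadjusted p under 0.05, and CG8628 was at 0 in all 12xWT libraries. They summed to 878 to 1354 CPM in 12xWT libraries and 941.3 to 1103 CPM in yw libraries, most of it Rfabg. Of the 9 tested, 7 had a positive fold change, and their median log2 fold change was 1.25, with 3.16 in males and 0.19 in females. The hemocyte list had a median of 0.81, with 10 of 13 positive. Lsp1alpha stood at 1.88, Lsp2 at 1.79 and Fbp1 at 1.72, with wide spread among libraries. In 12xWT male replicate 3, the library highest in GNBP3, modSP and 18w, Fbp1 and Lsp2 were also at their highest, 249.1 and 110.7 CPM, while Rfabg was at its lowest, 733.6 CPM. Lsp1alpha, Lsp1beta, Lsp1gamma and fon were highest in 12xWT male replicate 1 and Fbp2 in 12xWT female replicate 1. The lowest library for Lsp1alpha, Lsp1beta, Lsp1gamma, Lsp2, Fbp1 and Fbp2 was yw male replicate 2, with Lsp2 at 2.28 and Fbp1 at 2.02 CPM. It is 1 of only 2 yw male libraries behind the male median. The edgeR test of a difference in genotype effect between the sexes called 0 of the 9 fat body markers. Gut markers summed to 0.945 to 1.95 CPM in 12xWT libraries and 0.315 to 0.623 CPM in yw libraries, with 1 of 2 tested called higher, and the 5 others, alphaTry among them, were at or below 0.0813 CPM in every library. Of the glia markers 6 of 10 were called lower, of the neuroblast markers 4 of 5, and of the neuron markers 3 of 7 with 1 higher. Of all genes tested, 16.4% were called lower and 17% higher. The differences were mostly small, with median log2 fold changes of -0.18 for glia, -0.16 for neuroblast and -0.09 for neuron markers. The part of these cell types in the members' differences was not tested.

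**Figure D5:**
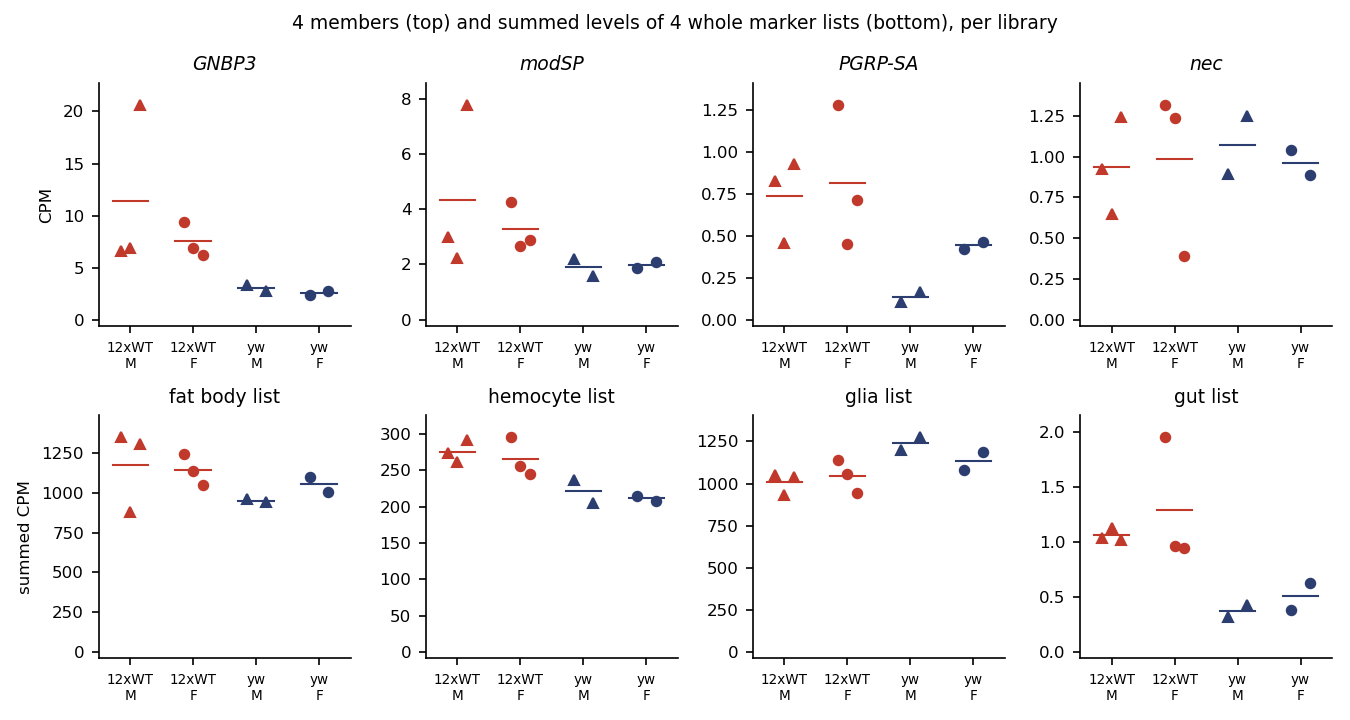
CPM per library of the members GNBP3, modSP, PGRP-SA and nec (top), chosen after their values were seen, and summed CPM of the whole fat body, hemocyte, glia and gut marker lists (bottom), with lines at group means. GNBP3 (20.7 CPM) and modSP (7.8 CPM) are highest in 12xWT male replicate 3, the fat body sum is highest in 12xWT male replicate 1 (1354 CPM), and the hemocyte sum is higher in every 12xWT library than in every yw library. Most of the hemocyte sum is Pxn, crq and ush.

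Around the members, 94 further genes of the same and adjoining pathways were found in the table, 71 of them tested, with 20 called higher and 11 lower. For these and for each list below, the shares over all genes tested were 17% higher and 16.4% lower. Upstream, of 6 further genes listed with the cascade 5 were tested and all 5 were called higher. Among the cascade members spz was called higher, while modSP and nec were not called. Hayan, a protease that also acts in melanization, had a log2 fold change of 2.0, GNBP2 1.53, the protease gene spirit 1.31 and the serpin gene Spn88Ea 0.63. Of the 5 other Spätzle family ligands 0 were called by edgeR, with 0 at an unadjusted p under 0.05, and the values ran from -0.41 for spz4 to 1.49 for NT1. Among the other Toll family receptors 5 of 6 were tested and 2 were called lower, Toll-6 at -0.25 and Toll-9 at -1.83, the second with a mean of 0.0533 CPM in 12xWT and 0.197 CPM in yw libraries.

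Further genes of the Toll relay gave 2 higher and 2 lower of 9 tested, with Pli at 0.24, aPKC at 0.22, lwr at -0.10 and krz at -0.07. Further genes of the Imd relay gave 1 higher and 4 lower of 16 tested. The largest falls were in akirin, whose product acts with Relish in the nucleus, at -0.47, and in the peroxiredoxin gene Jafrac1 at -0.33, followed by dnr1, a negative regulator of Dredd, at -0.21. CYLD, a deubiquitinase gene, was the higher one at 0.09. In the JNK branch downstream of Tak1, 3 of 6 were higher, Jra at 0.25, kay at 0.23 and the phosphatase gene puc at 0.15, and Mkk4 was lower at -0.08.

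Of the genes listed as targets of either pathway, most were barely detected. Of 15 antimicrobial peptide genes 10 were tested and 2 were called higher, AttB at 2.47 and AttD at 1.19, and the sum over all 15 was 4.56 to 8.5 CPM in 12xWT libraries and 2.85 to 3.1 CPM in yw libraries. Drs, the antifungal peptide gene of the Toll pathway, had a log2 fold change of 1.48 (edgeR adjusted p = 0.0648, SE 0.536), with 0.838 to 4.5 CPM in 12xWT libraries and 0.454 to 0.801 CPM in yw libraries. Of 17 genes for Bomanins and similar secreted peptides 4 were tested and 1 was called, IM23 at 3.08 (edgeR adjusted p = 6.7e-05, SE 0.362). IM23 had 0.229 to 0.428 CPM in 12xWT libraries and 0.0175 to 0.0534 CPM in yw libraries. Among 11 tested genes of other immune signalling, 6 were higher and 2 lower. The higher ones with the largest values were the JAK/STAT cytokine genes upd3 at 1.48, upd2 at 1.09 and os at 0.56, and the TNF receptor gene wgn at 0.37.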

How the data were processed

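The deposited gene table holds counts of read pairs per gene for 10 libraries, made by the authors with featureCounts 2.0.1 on dm6, per the file headers, without strand and multi-mapping options, so counts are unstranded and of uniquely mapped pairs. STAR 2.7.7a, SAMtools 1.9, bedtools 2.26, deepTools 3.2.0 and DESeq2 1.34.0 are named in the submitters' processing notes. The authors' deposited comparison of yw over 12xWT gives a mean normalized count (a signal value), log2 fold changes with standard errors, a Wald statistic (a score) and p-values. Its lowest mean is 9.78.

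Counts were tested with edgeR 4.0.16 (robust quasi-likelihood, TMM factors from 0.985 to 1.02, filterByExpr over the 4 groups) in R 4.3.3 with limma 3.58.1. The genotype and sex effects came from a model with both terms over all 10 libraries. Effects within a sex or genotype and the interaction came from a model of 4 group means. The common biological coefficient of variation was 8.76%. Standard errors are the absolute log2 fold change over the root of the F statistic. CPM uses library totals without TMM scaling, and exon overlaps and FlyBase identifiers come from an annotation of the same build. The fit was tested on simulated data. Alternatives were other scalings, DESeq2 1.42.0, no filter, no robust step, a replicate block, leaving out each library or overlapping genes, and a log2 fold change of at least 1. Figures were drawn with matplotlib 3.10.9 and tables with pandas 2.3.3.

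The members, gene lists and tests were chosen with earlier results of these data known. Every member is named. Those called for genotype or not tested are given by the lowest, median and highest 12xWT value and each yw value. Other pathway genes are named when called, up to 4 a list by size. Of 98 such names written 4 were not found. No libraries of a group were repeats of each other within counting error (chi-square over its degrees of freedom, 8.84 to 27.1), so all 10 were kept.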

Additional observations from a re-analysis of the deposited data

Results flagged for a closer look

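The 12xWT and yw libraries of the 36 members with any count, 72 groups in all, were searched for a single library far from the rest of its group, and 5 were found. Chance alone gives about 1 in 20 groups. The value of GNBP3 in 12xWT male replicate 3 was 20.67 CPM, with the next 12xWT library at 9.418 CPM. In the same library modSP stood at 7.8 CPM, with the next at 4.278 CPM, and 18w at 126.2 CPM, with the next at 113 CPM. In 12xWT female replicate 1 Rel stood at 42.5 CPM, with the next at 35.18 CPM. In 12xWT female replicate 3 PGRP-SC2 stood at 0.3566 CPM, with the next at 0.1924 CPM.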

How the results depend on the processing

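Of the 15 members called for the genotype effect, 8 kept the call in 17 other settings (PGRP-SB1, GNBP1, spz, 18w, dl, Rel, Dredd and pirk), and no called member changed sign. These 17 do not include the fold requirement or the removal of overlapping members. Of the 8, only PGRP-SB1 and pirk met the fold requirement, and spz and Dredd overlap another gene. Of the 14 higher members, 5 were left with a log2 fold change of at least 1 as well, 9 without members that overlap another gene and 9 without the 12xWT female libraries, a setting chosen after seeing the data. The 1 lower member, Dredd, gave 0 with the fold requirement and 0 without overlapping members. Leaving out each library in turn gave 11 to 14 higher and 1 to 2 lower members.

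In females the 4 higher members became 2 with the fold requirement and 2 to 6 without single libraries. The 1 lower member became 0 with library size scaling, DESeq2, no filter, the replicate block or the fold requirement, and 0 to 1 without single libraries. In males the 10 higher members became 6 with the replicate block, 4 with the fold requirement and 3 to 11 without single libraries, and the 1 lower became 0 with the fold requirement and 1 to 2 without single libraries. The 2 members higher in males than in females became 1 with the replicate block, 0 with the fold requirement and 1 to 2 without single libraries. Within 12xWT, DESeq2 called 1 member for sex. The cause of these shifts was not tested, apart from the fewer members or libraries that some settings hold by construction.

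Values near 0 changed sign. PGRP-LE was 0.0077, and -0.0066 with the replicate block, -0.0593 without the 12xWT females and -0.0264 to 0.0367 without single libraries. Dif was -0.0006, and 0.0216 with library size scaling, 0.001 without the filter, 0.0421 with the replicate block and -0.0707 to 0.0512 without single libraries. Without single libraries nec ran from -0.2316 to 0.0542 and Myd88 from -0.0995 to 0.0033.

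No sign was found that the replicate numbers of the labels pair the samples: over 13 same-numbered pairs the correlation of deviations ran from -0.172 to 0.104. These pairs share libraries and are not independent, so the check cannot show that pairing is absent. With the replicate block 1361 genes of the whole table were higher and 1216 lower, against 1890 and 1832 without it, and the calls of PGRP-LD, PGRP-SA (edgeR adjusted p = 0.0544), pll and Tab2 were lost. Library size scaling gave 2112 genes higher and 1338 lower, and 8 of the tested members average under 1 CPM in yw libraries, where depth limits precision.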
